A study of Mus musculus with 4 samples.

Results

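The BAP1-FLAG peak list describes where tagged BAP1 was precipitated with chromatin in mouse macrophages. All deposited peaks on chromosomes 1 to 19 were taken, which are 17389 of the 17662 peaks in that list and of the 59420 peaks in the 3 lists of the series. The series has 4 samples of bone marrow derived macrophages from C57BL/6 mice, primary cells grown out in L929-conditioned medium and given no further treatment. There is 1 ChIP-seq library for each of BAP1, HCF1 and OGT, and an input library made without any antibody. For BAP1 the antibody was against FLAG and the cells came from a knock-in mouse line that the submitters made, in which BAP1 itself carries a 3X FLAG tag. HCF1, OGT and input were taken from BAP1 WT mice, whose BAP1 has no tag, so the only input in the series differs from the BAP1 sample in genotype. The name of the deposited BAP1 list refers to wild-type cells, whereas the labels give the knock-in, and the labels were followed. No anti-FLAG precipitate from untagged cells was analysed here, so sites that depend on the tag cannot be told apart from sites that do not. No tissue marker can be checked in a list of peaks.

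BAP1 is a nuclear deubiquitinase that removes ubiquitin from histone H2A, a mark placed by Polycomb repressive complexes, and it is a tumour suppressor in mesothelioma and uveal melanoma. It works in a complex with ASXL proteins, binds the chromatin cofactor HCF1, and is found together with OGT, the enzyme that attaches O-GlcNAc to nuclear proteins. BAP1 has no well-known DNA-binding domain of its own and is brought to chromatin at least in part by partner proteins, and its loss in mice disturbs the formation of myeloid cells.

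Every value below comes from 1 library, so none has a replicate error and no difference was tested between samples. Percentages carry an exact Clopper-Pearson 95% interval, which covers counting error only and treats neighbouring peaks as independent, and correlations across peaks or windows are descriptions without a p. The read depth is unknown, and a deeper library gives more, wider and closer peaks. The score is 1 deposited number per peak, from 50.01 to 3127 here, and no source states how it is defined. MACS 1.4, the peak caller in the submitters' processing notes, commonly writes a log-transformed p-value of the peak in such a column. Positions are in mm9, counted from 1. The gene table supplied is for GRCm38, so regions are named by position and no gene or sequence is given.

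Peaks were mostly between about 1 and 2 kb wide, and wider peaks scored higher. The median width was 1247 bp, with quartiles of 1005 and 1706 bp, and the extremes were 378 and 19881 bp. The median score was 113, with quartiles of 71.9 and 202. Peaks up to 500 bp wide were rare, at 13, and 150 peaks (0.863%) were wider than 5 kb. Together the peaks covered 26 Mb. Across the 17389 peaks the Spearman rho of width and score was 0.69, and on single chromosomes it lay between 0.62 (chromosome 2) and 0.73 (chromosome 7). Both values are drawn from the same reads of a peak.

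The largest step in median width between neighbouring score deciles was the last one. From the lowest to the ninth score decile the median width rose slowly, from 921 to 1732 bp, while inside each of these deciles width and score were nearly unrelated, with rho between 0.07 and 0.13 over the narrow range of scores each spans. In the highest decile, with scores of 336 and above, the median width was 2464 bp, the upper quartile 3304 bp and the rho 0.48. That decile spans a far wider range of scores, up to 3127, so its rho cannot be set against the others. No slope was fitted by score range. Read the other way, the median score went from 69.0 for peaks of 750 to 1000 bp to 176 at 1.5 to 2 kb and 804 above 5 kb. A straight line through the logarithms of both gave 1.35 times the width for each doubling of the score.

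**Figure D1:**
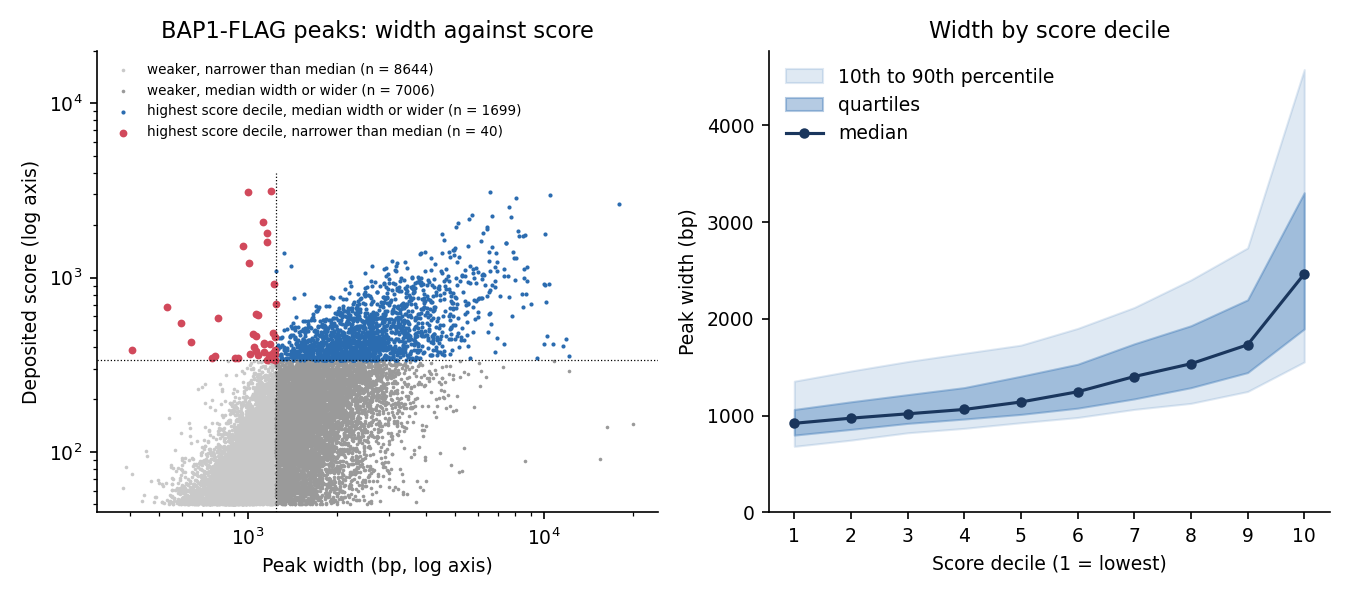
Left, each point is 1 BAP1-FLAG peak by width (bp) and deposited score, both on log axes; dotted lines mark the median width of 1247 bp and the lower limit of the highest score decile. The 40 peaks in red lie above and to the left of the main cloud. Right, width by score decile as median, quartiles and 10th to 90th percentiles; the median goes from 921 bp in the lowest to 2464 bp in the highest decile.

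A small set of peaks was narrow and yet scored high. Of the 1739 peaks in the highest score decile, 40 were narrower than the list median (2.30%, interval 1.65 to 3.12%), compared with 172 of 1739 in the ninth decile (9.89%) and 1504 in the lowest (86.5%). Their share did not fall steadily with the score. It was 2.45% (1.60 to 3.56%) of 1063 peaks with scores from 336 to 500, 1.22% (0.490 to 2.49%) of 576 peaks from 500 to 1000, and 7 of the 100 peaks at 1000 or more (7.0%, 2.86 to 13.9%). The last interval, which rests on 7 narrow peaks, overlaps the first but not that of the scores from 500 to 1000. The peaks at 1000 or more were otherwise wide, with a median of 5225 bp. The 40 peaks lay on 15 of the 19 chromosomes, with 6 on chromosome 2 as the most on any 1 of them. They lay farther from other peaks than the wider strong peaks did. The median distance to the nearest other BAP1 peak was 18.1 kb (quartiles 6.70 and 62.0 kb) against 6.94 kb for the 1699 wider strong peaks, and 15 of the 40 had a neighbour within 10 kb (37.5%, 22.7 to 54.2%) against 58.0% (55.6 to 60.3%). The narrow weaker peaks, at 13.3 kb and 43.5% (42.5 to 44.6%), came close to them in this.

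Of the 7 highest-scoring narrow peaks, 4 met an HCF1 peak ranked between percentiles 51.6 and 75.7 of the HCF1 list by score, 3 met none, and none met an OGT peak. Over all 40 narrow strong peaks the overlapped shares were 62.5% for HCF1 and 35% for OGT. The peak with the highest score in the whole list, at chr19:4988579-4989771, scored 3127 over 1193 bp. The HCF1 peak under it was 536 bp wide and scored 109, at percentile 51.6, and the nearest OGT peak was 11.8 kb away. The next, at chr7:6362571-6363569, scored 3100 over 999 bp, and its HCF1 peak scored 151, at percentile 62.8. The value 3100 recurs exactly, at 2 BAP1, 43 HCF1 and 1 OGT peaks, and 1 BAP1 and 6 HCF1 peaks score more, so ranks near it are uncertain. A peak at chr9:108728865-108729986 scored 2080 with an HCF1 peak of 200.2 at percentile 70.5, and one at chr5:137505560-137506716 scored 1598 with an HCF1 peak of 249 at percentile 75.7. Scores depend on each library's depth, so they are compared here by rank within each list.

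Of the 10 named narrow peaks, only the 3 counted above had no HCF1 peak at all. They were chr15:84659432-84660594 with a score of 1810, 25.9 kb from the nearest HCF1 peak, chr17:56381089-56382052 with 1520, and chr8:14072188-14073199 with 1214. The nearest OGT peaks lay 92.3, 13.1 and 202 kb away. The peak at chr8:74195089-74196309 scored 923 and had an HCF1 peak of 376, at percentile 84.0, and the nearest OGT peak was 3.72 kb away. The remaining 2 ranked high in both lists, at percentiles 98.4 and 98.2 for BAP1 and at 99.4 for both HCF1 peaks. At chr16:57391089-57392331 the BAP1 score was 709.52, the HCF1 score 1967 and the OGT score 373. At chr3:5860460-5860991 peaks of all 3 proteins were only 532, 368 and 420 bp wide, their centres coincided exactly, and the scores were 675 for BAP1, 2001 for HCF1 and 282 for OGT. That site lay 283 kb from the next BAP1 peak, and it was among the narrowest peaks of the list. Sequence copy number and mappability at these places were not tested.

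Over all 40 narrow strong peaks, HCF1 overlapped 25 (62.5%, 45.8 to 77.3%) and OGT 14 (35%, 20.6 to 51.7%), with 13 overlapped by both and 14 by neither. For HCF1 this lies near the narrow weaker peaks (58.9%, 57.8 to 59.9%) and below the wider strong peaks, of which 1686 of 1699 (99.2%, 98.7 to 99.6%) were overlapped. OGT overlapped 81.1% of the wider strong and 19.3% of the narrow weaker peaks. Wider peaks meet others more easily, while a fixed limit between centres can be harder for them to meet, so neither rule is free of width. When centres were compared instead, the order changed for HCF1 but not for OGT. With centres required to lie within 250 bp the HCF1 shares were 57.5% (40.9 to 73.0%) for the narrow strong, 54.7% (52.3 to 57.1%) for the wider strong and 45.9% (44.9 to 47.0%) for the narrow weaker peaks, and the difference between the 2 strong sets was then within the intervals. With centres the OGT shares were 27.5% (14.6 to 43.9%), 34.8% and 14.9%. Where an HCF1 peak was present, its score stood at a median percentile of 87.6 of the HCF1 list, ranging from 38.7 to 99.4. The median was 94.0 at the wider strong and 63.0 at the narrow weaker BAP1 peaks. The HCF1 peak was itself narrower than the HCF1 median at 9 of the 25 (36.0%), against 2.85% at wider strong and 41.9% at narrow weaker BAP1 peaks. A wider BAP1 peak can meet several HCF1 peaks, of which only the highest-scoring was kept. In the HCF1 list width and score had a rho of 0.84, so these partner values are not free of BAP1 width either. The 12 with HCF1 but no OGT had a median score of 499.6 and the 14 with neither one of 424.

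At the other extreme, the widest peaks did not all score high. Of the 174 peaks in the widest 1%, from 4835 bp up, the median score was 766 and 25 lay below the highest score decile. The widest peak, chr2:117935262-117955142, spanned 19881 bp with a score of 145, had no other BAP1 peak within 70.2 kb, and was met by an HCF1 peak of only 383 bp with a score of 62.6. The second, chr19:5834187-5852026, spanned 17840 bp with a score of 2632, and the HCF1 and OGT peaks on it were 15817 and 13081 bp wide. The next were chr10:59739744-59755998 (16255 bp, score 139), chr7:149559490-149574929 (15440 bp, 91.0) and chr7:31196799-31208931 (12133 bp, 289.6). By rank the BAP1 scores of these 3 stood at percentiles 59.6, 38.7 and 86.5 of the BAP1 list. The highest-scoring HCF1 peaks on them were shorter, between 5278 and 9830 bp. They scored between 1250 and 2012, above the 95th percentile of the HCF1 list, which was 833. Thus 4 of the 5 widest peaks scored below the highest decile, although that decile had the widest median. The lowest scores in the widest 1% were 76.9, 78.0, 84.4, 88.9 and 91.0, at chr18:36882823-36887970, chr9:65380421-65385693, chr11:79340040-79344883, chr6:129130023-129138624 and the chromosome 7 peak of 15440 bp. HCF1 peaks overlapped all 5, the highest-scoring on each with scores from 324 to 2848, and OGT peaks overlapped 4. These counts are near the shares for such widths. Of all peaks over 5 kb, HCF1 overlapped 100% and OGT 91.3%, and of those of 3 to 5 kb 98.9% and 84.7%.

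Neighbouring peaks were most often between 10 and 100 kb apart, with a long tail in both directions. The list holds no overlapping peaks, and the 17370 gaps between neighbours ran from 1 bp to 11.6 Mb. The median gap was 25.1 kb (24.2 to 25.8 kb) with quartiles of 7.03 and 78.8 kb, and the mean was 137 kb with an SD of 484 kb, 3.54 times the mean. Gaps of up to 1 kb made up 7.52% (1306), gaps of up to 10 kb 30.7% (5331) and gaps of up to 100 kb 79.3%. Median gaps by chromosome ranged from 16.6 kb on chromosome 19 to 42.3 kb on chromosome 18.

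The score of a peak said little about the score of the next one, however near it was. Among the 1306 neighbours up to 1 kb apart the Spearman rho of the 2 scores was -0.02, and it was 0.03 for 4025 pairs at 1 to 10 kb, 0.04 for 8442 pairs at 10 to 100 kb and -0.03 for 3094 pairs at 100 kb to 1 Mb. Widths of the closest pairs were weakly related, with a rho of 0.18. What changed with distance was the level of the stronger member. Its median score was 208 up to 1 kb and 168 at 100 kb to 1 Mb, while the weaker member stayed between 73.8 and 80.3 in every class. In the closest pairs the stronger member scored 2.11 times the weaker one in the median. Whether such pairs are 1 broad signal divided by the peak caller was not tested. At 352 of the 1306 (27.0%, 24.6 to 29.4%) 1 HCF1 peak lay on both members, and at 296 of the 1306 it was also the highest-scoring HCF1 peak on each.

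**Figure D2:**
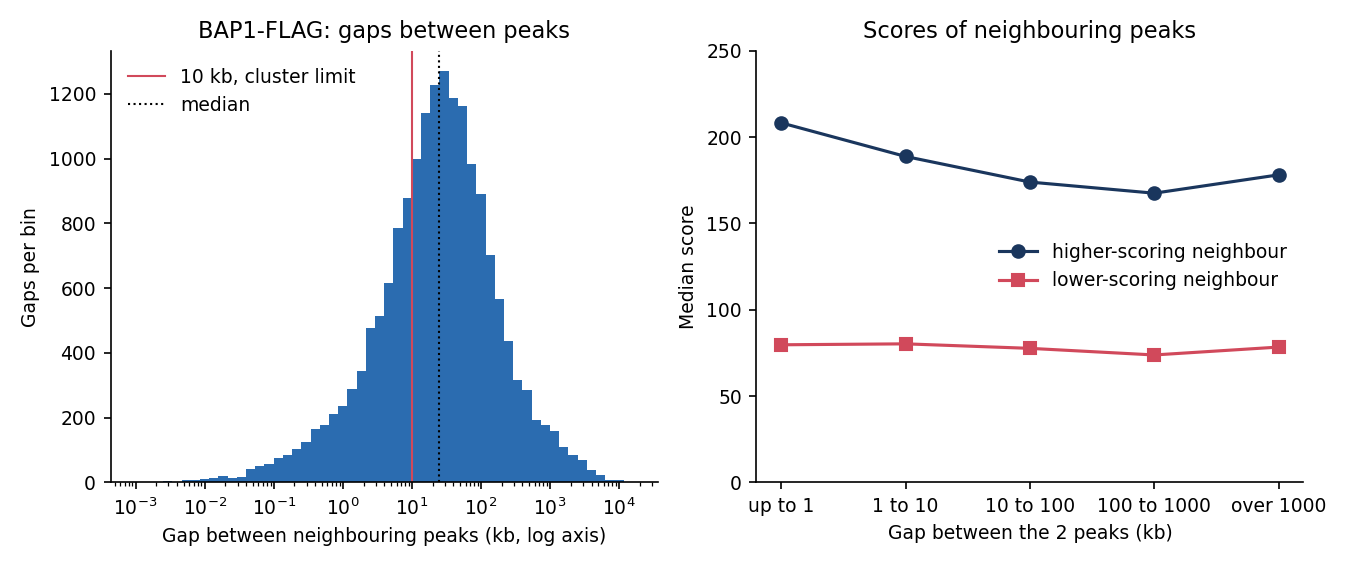
Left, histogram of the 17370 gaps between neighbouring BAP1-FLAG peaks (kb, log axis), with the 10 kb cluster limit and the median of 25.1 kb marked. Right, median score of the higher- and the lower-scoring peak of neighbouring pairs by gap class (kb); the higher falls from 208 to 168 and then reads 178 for gaps over 1 Mb, and the lower stays between 73.8 and 80.3.

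Strong peaks sat closer to other peaks than weak ones. The median distance to the nearest peak was 7.03 kb in the highest score decile and between 10.3 and 12.7 kb in each of the other 9. The strong peaks farthest from any other were chr6:106718255-106719807 (score 389.5, 1415 kb), chr19:14672070-14673727 (389, 1203 kb), chr17:39979405-39985955 (3100, 1024 kb), chr16:42874620-42876857 (642, 1013 kb) and chr1:152239333-152241159 (462, 856 kb). All 5 lay on HCF1 peaks and 4 on OGT peaks. That is near the shares of all 1699 wider strong peaks, 99.2% for HCF1 and 81.1% for OGT. The chromosome 17 site was the only one of the 5 that was also very wide, at 6551 bp. Its HCF1 and OGT peaks were 6123 and 6066 bp wide with scores of 3100 and 2820. Sequence copy number and mappability were not tested at these 5 sites either, so whether any of them is a place of binding is not known.

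Long stretches held no BAP1 peak. Gaps over 1 Mb numbered 503 (2.90% of gaps) and summed to 1168 Mb, 48.7% of the length between the first and last peaks of the chromosomes. HCF1 had few peaks in them as well, 1338 in all (4.33% of its list), and OGT had 228 (2.23%). No HCF1 peak fell in 121 of the 503 and no OGT peak in 355. The longest was 11.6 Mb, chr14:87816383-99444601, with no HCF1 and 1 OGT peak inside. It was followed by chr1:109487202-120207208 (10.7 Mb, 1 HCF1 peak), chr5:54390041-64202737 (9.81 Mb, 7 HCF1 and 1 OGT), chr14:106555058-115345398 (8.79 Mb, 3 HCF1) and chr6:73199111-81915521 (8.72 Mb, none of either). Sequence that cannot be mapped was not removed from these lengths.

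Peaks with edges at most 10 kb apart were joined into clusters, and nearly as many peaks were clustered as single. There were 3058 clusters of 2 or more with 8389 peaks (48.2%, 47.5 to 49.0%), and 9000 single peaks. Pairs made up 63.5% of clusters. Clusters of 5 or more numbered 270 and held 1708 peaks (9.82%), and 20 clusters had 10 or more. The largest held 13. The median cluster spanned 9.01 kb and the longest 68.3 kb, and all clusters together spanned 33.8 Mb.

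Score and width rose with cluster size. Single peaks had a median score of 111 and a median width of 1194 bp, pairs 111 and 1242 bp, clusters of 3 to 4 peaks 117 and 1358 bp, clusters of 5 to 9 peaks 131 and 1496 bp, and clusters of 10 or more 159 and 1691 bp. The share of peaks in the highest score decile went from 8.21% of single peaks to 25% of those in the largest clusters. The share of peaks scoring below 100 went from 44.8 to 32.3%, and the lower quartile of the scores from 70.7 to 90.02. The median of the highest score in a cluster was 172 in pairs and 703 in clusters of 10 or more, whereas the median of the lowest score fell from 76.3 to 54.4. A larger cluster has more chances of both a high and a low member. In 2239 of the 3058 clusters (73.2%) the widest peak was also the highest-scoring one.

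There were 11 clusters of 11 or more peaks, on 10 chromosomes. The 3 with 13 peaks were chr13:23617907-23678375, chr10:80812288-80877541 and chr11:68871606-68939890, spanning 60.5, 65.3 and 68.3 kb with highest scores of 687, 1202 and 445. In the chromosome 13 cluster 4 peaks were in the highest score decile, the strongest held 17.3% of the summed score, the lowest share of the 11, and HCF1 overlapped 12 peaks and OGT 4. In the chromosome 11 cluster all 13 peaks lay on HCF1 peaks and 6 on OGT peaks. The 3 with 12 peaks were chr15:85991748-86056532, chr9:107435253-107490517 and chr7:148622878-148677660. The chromosome 15 cluster had the highest summed score of the 11, at 5507, with single peaks of 1797 and 1087. Of the 5 clusters with 11 peaks, chr2:164647796-164712993, chr8:73026567-73084811 and chr10:127024488-127081535 spanned 65.2, 58.2 and 57.0 kb. The last has the lowest summed score of the 5, at 2136, and HCF1 overlapped all of its peaks and OGT 10.

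The other 2 clusters of 11 peaks were of a different build. At chr6:122518975-122555275 the 11 peaks covered 89.5% of 36.3 kb with a median gap of 0.093 kb, and at chr19:5786194-5852026 they covered 81.7% of 65.8 kb with a median gap of 0.517 kb. The other 9 were covered to between 26.5 and 47.4%, with median gaps of 2.02 to 3.27 kb. Joined over 1 kb, the chromosome 6 cluster was 2 pieces and the chromosome 19 cluster 4, while the others kept between 7 and 10. HCF1 overlapped all 11 peaks of the chromosome 6 cluster and 10 of the chromosome 19 cluster, which contains the second widest peak of the list with 49.3% of the cluster's summed score.

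**Figure D3:**
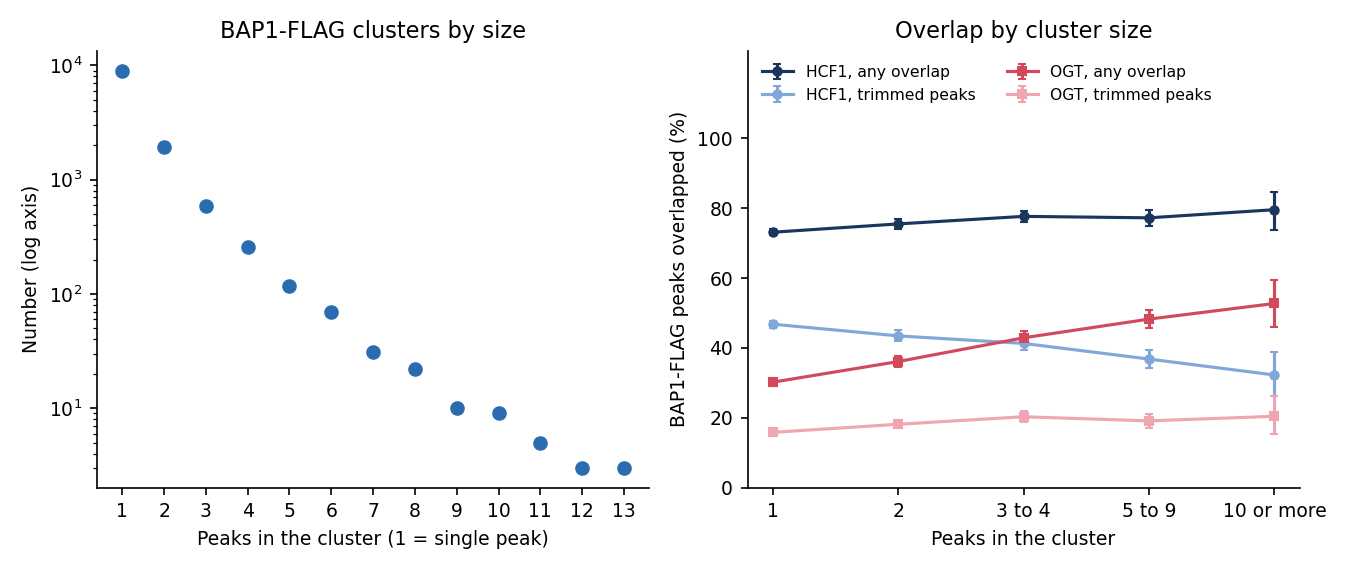
Left, number of clusters (log axis) by the number of BAP1-FLAG peaks they hold, from 9000 single peaks to 3 clusters of 13. Right, share of BAP1-FLAG peaks overlapped by HCF1 or OGT (%) by cluster size, for peaks as deposited and for peaks trimmed to 200 bp around their centres, with exact 95% intervals; for HCF1 the 2 rules run in opposite directions.

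Clustered peaks were met more often by OGT, and for HCF1 the direction depended on the overlap rule. OGT overlapped 41% (39.9 to 42.0%) of clustered and 30.2% (29.3 to 31.2%) of single peaks, and with peaks trimmed to 200 bp 19.1% (18.3 to 20%) and 15.9% (15.1 to 16.6%). The OGT share was higher for clustered peaks in each width quintile of the list, from 14.2% against 10.8% in the narrowest to 69.8% against 61.3% in the widest, and in each score quintile. HCF1 overlapped 76.6% (75.7 to 77.5%) of clustered and 73.1% (72.2 to 74.0%) of single peaks, but with trimmed peaks 41.3% (40.2 to 42.3%) and 46.8% (45.8 to 47.8%), and with centres within 250 bp 47.2% (46.1 to 48.3%) and 52.9% (51.8 to 53.9%). Split by width, the HCF1 share of clustered peaks was higher in the narrowest quintile only (45.3% against 38.4%) and lower in the other 4 (65.3 against 66.3%, 78.7 against 84.2%, 88.0 against 90% and 95.8 against 96.7%). Split by score, it was higher in quintiles 1, 2 and 5 (49.8 against 43.9%, 64.5 against 58.5% and 98.1 against 97.4%) and lower in 3 and 4 (76.7 against 77.2% and 90.9 against 91.5%). In clusters of 10 or more the HCF1 share was 79.5% (73.6 to 84.7%) with peaks as deposited and 32.3% (26.1 to 38.9%) with trimmed peaks. All members lay on HCF1 peaks in 1157 of the 1941 pairs (59.6%) and in 62 of the 250 clusters of 5 to 9 (24.8%). None did in 168 pairs, 18 clusters of 3 to 4 and no larger cluster, and OGT was missing from 860 pairs and 10 clusters of 5 to 9. At the same share per peak, a cluster with more members less often has all of them, or none, on such peaks. Per peak the HCF1 share was 75.5% in pairs and 77.2% in clusters of 5 to 9.

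Density per 1 Mb was uneven. In the 2415 windows from the first to the last with a peak on each chromosome, the mean was 7.20 peaks, the median 4 and the upper quartile 10. The variance was 91.2, or 12.7 times the mean. No peak fell in 655 windows (27.1%), 243 windows held 20 or more, and 322 windows (13.3%) were enough to hold 50 percent of the peaks. The 121 densest windows, 5% of all, had at least 28 peaks each and 25.7% (25 to 26.3%) of the list. The limit was a tie, and 4 more windows with exactly 28 peaks, on chromosomes 1, 5, 11 and 18, were left out because they had fewer HCF1 peaks. Counting these, windows this dense occurred on all 19 chromosomes. Of the 121 windows 17 each lay on chromosomes 7 and 11, and 77 of them (63.6%) had another dense window beside them. Counts in adjacent windows had a Spearman rho of 0.47 over 2396 pairs.

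**Figure D4:**
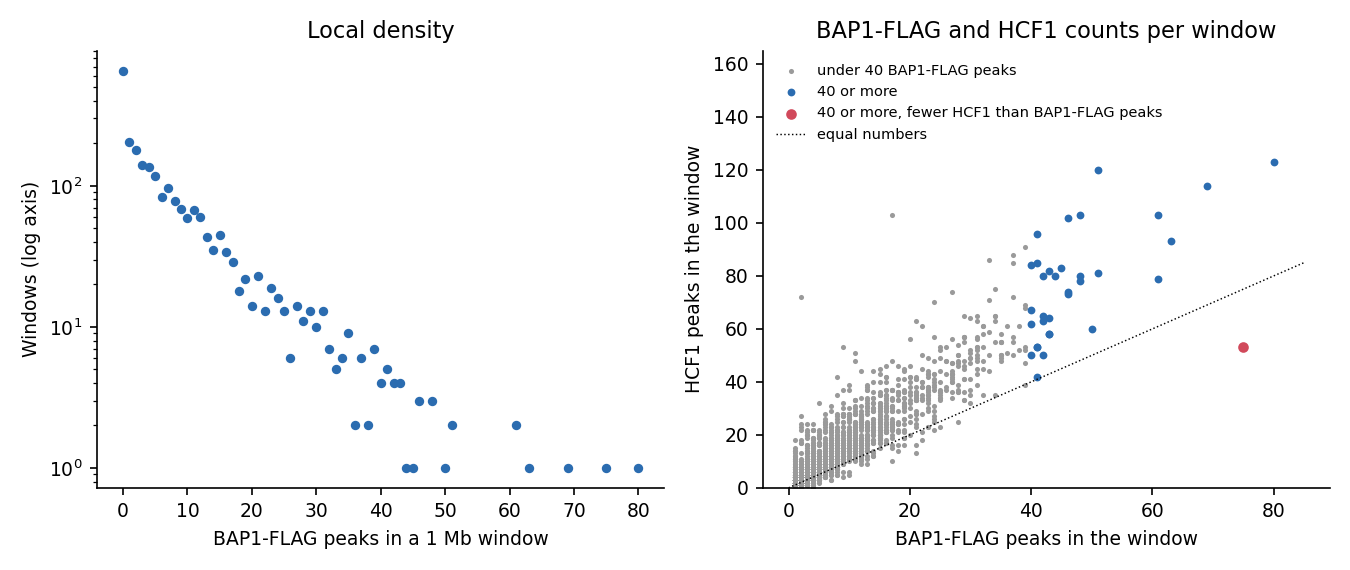
Left, number of 1 Mb windows (log axis) by the number of BAP1-FLAG peaks in them, from 655 empty windows to 1 with 80 peaks. Right, HCF1 against BAP1-FLAG peaks per window, for windows with a BAP1-FLAG peak; the dotted line marks equal numbers, and 1 of the 34 windows with 40 or more BAP1-FLAG peaks, with 75 of them and 53 HCF1 peaks, lies below it.

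Dense windows held stronger peaks, mainly at the upper end. The median score was between 106 and 113 in windows of 1 to 20 peaks, 119 in windows of 21 to 40 and 139 in the 30 windows with over 40. The share of peaks in the highest score decile was 7.32, 6.90, 7.22, 8.76, 11.6 and 18.5% from the emptiest to the densest class, and the share in clusters reached 73.3%. Over the 1760 windows with a peak, the number of peaks and their median score had a rho of 0.02, so the difference is not seen across ordinary windows. HCF1 overlapped 73.2% (66.6 to 79.1%) of lone peaks and 78.6% (76.4 to 80.7%) of those in the densest class, and OGT 24.4% (18.7 to 30.9%) and 48.2% (45.6 to 50.8%).

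The 10 densest windows were led by chr10:80000001-81000000 with 80 peaks, and the window before it, from 79000001, had 69. Of these 80 and 69 peaks, 60 and 53 were clustered and 21 and 19 in the highest score decile. The others were chr14:55000001-56000000 (75 peaks), chr8:73000001-74000000 (63), chr19:5000001-6000000 (61), chr7:52000001-53000000 (61), chr17:34000001-35000000 (51), chr11:115000001-116000000 (51), chr11:69000001-70000000 (50) and chr17:35000001-36000000 (48). The last shared its count with chr7:148000001-149000000 and chr11:120000001-121000000, which had fewer HCF1 peaks (80 and 78 against 103), so 12 windows had 48 or more. Highest scores in them ran from 587 to 2877, the latter in the first chromosome 17 window. The 2 adjoining chromosome 17 windows were the only ones of the 12 with more OGT than BAP1 peaks, at 57 against 51 and 54 against 48. They also had the most HCF1 peaks per BAP1 peak, 2.35 and 2.15.

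The chromosome 14 window stood out from the other 11, and was examined after its values were seen. It held 75 BAP1 but 53 HCF1 and 19 OGT peaks, 0.707 HCF1 peaks per BAP1 peak, where the other 11 had 1.20 to 2.35 and the whole list 1.78. HCF1 overlapped 36 of the 75 (48.0%) against 68.0 to 87.5% in the other 11, and OGT 17 (22.7%) against 41.7 to 72.9%. The 39 peaks off HCF1 had a median score of 83.6 and a median width of 1102 bp, the 36 on it 257 and 2047 bp. Of them 1 and 15 were in the highest decile. This contrast is not particular to the window. In the whole list HCF1 overlapped 46.9% of peaks of 750 to 1000 bp and 96.0% of those of 2000 to 3000 bp. With only scores of 100 or more on both sides there were 46 BAP1 and 26 HCF1 peaks. The peaks were spread over 9 of the 10 stretches of 100 kb, with at most 13 in 1 of them. The window before it held 10 BAP1, 5 HCF1 and 4 OGT peaks, and the window after it 39, 39 and 15. Of the 243 windows with 20 or more BAP1 peaks, 8 (3.29%) had fewer HCF1 than BAP1 peaks, and the lowest ratio was 0.619 at chr2:120000001-121000000 with 21 and 13.

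Over all windows the counts ran together, with a rho of 0.93 between BAP1 and HCF1 and 0.88 between BAP1 and OGT. By their names all 3 lists were called against a macrophage input, and all are on the same genome, so the lists share mappable sequence. Exceptions in the other direction were also examined after the values were seen. Of the 31 windows with 70 or more HCF1 peaks, 29 held 24 to 80 BAP1 peaks, while chr1:175000001-176000000 held 2 BAP1 against 72 HCF1 and 12 OGT peaks, and chr19:11000001-12000000 held 17 against 103 and 28.

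Chromosomes 11 and 19 were the densest, and chromosome 19 also had the most clustered and the most strong peaks by share. Density ranged from 5.01 peaks per window on chromosome 3 to 12.8 on chromosome 11, followed by 11 on chromosome 19. The clustered share went from 38.0% (33.5 to 42.7%) on chromosome 18 to 57.9% (54.0 to 61.7%) on chromosome 19. Median widths stayed between 1212 and 1347 bp and median scores between 102 and 123. The share of peaks in the highest score decile was lowest on chromosome 18 at 7.33% and highest on chromosome 19 at 14.5%. Empty windows made up 15.3% on chromosome 19 and 36.8% on chromosome 12, and the longest run of them was 11 windows on chromosome 14.

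**Figure D5:**
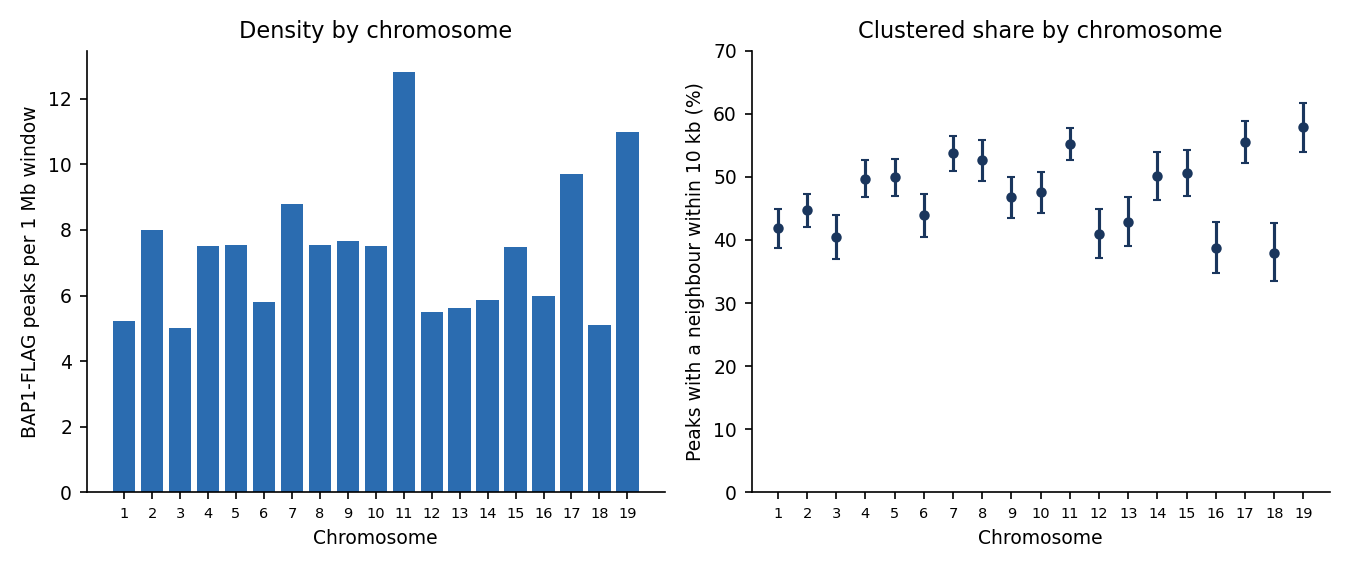
Left, mean number of BAP1-FLAG peaks per 1 Mb window on each chromosome, from 5.01 on chromosome 3 to 12.8 on chromosome 11. Right, share of peaks with another BAP1-FLAG peak within 10 kb (%), with exact 95% intervals, from 38.0% on chromosome 18 to 57.9% on chromosome 19.

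Set beside the other 2 lists at equal length, the BAP1 peaks were the least clustered. With the 10236 highest-scoring peaks of each list, which is the whole OGT list, the clustered share was 35.6% for BAP1, 41.3% for HCF1 and 50.4% for OGT. Gaps of up to 1 kb made up 4.56, 9.65 and 12.3%, and the largest clusters had 11, 27 and 34 peaks. In the same order, the median gaps were 44.3, 41.2 and 30.2 kb, and the densest 5% of windows held 28.2, 27.9 and 31.1% of peaks. Narrow peaks made up 4.88, 5.27 and 7.42% of the highest score decile, with median width and decile redrawn in each shortened list. Over the whole lists they made up 2.30, 0.517 and 7.42%, so BAP1 and HCF1 changed places. At equal length the lowest scores were 95.3, 175 and 50, so the lists differ in stringency. With 1 library each, no difference between proteins was tested.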

How the data were processed

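ChIP-seq peak lists from 3 libraries were used. Fragments were size-selected on a gel and PCR-amplified before sequencing (Illumina Genome Analyzer II), per the labels' protocols. GSNAP, MACS 1.4 and the build mm9 are named in the submitters' processing notes, without settings. Each deposited list gives position and a score per peak, called on 1 library. No input list was analysed here.

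Widths, edge-to-edge gaps, single-linkage clusters (10 kb) and counts of peak centres in 1 Mb windows were computed in Python 3.11.15 with pandas 2.3.3, numpy 2.4.6 and SciPy 1.17.1, and checked on simulated lists. Strong means the highest score decile, narrow below the median width. Overlap means at least 1 bp, and of several overlapping peaks the highest-scoring gave the partner's values. Regions were named by rank: 10 narrow peaks by score, 5 widest, 5 lowest-scoring of the widest 1%, 10 largest clusters, 5 most isolated strong peaks, 5 longest gaps, 10 densest windows (ties by HCF1 count), plus clusters and windows tied with the last named, added after the values were seen. Members, rules and alternatives were chosen with earlier results of these data known. The planned gene annotation and sequences were not used, since no mm9 reference was supplied.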

Additional observations from a re-analysis of the deposited data

Results flagged for a closer look

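Peaks outside chromosomes 1 to 19 were left out above, and their number exceeds the 3 that a count of 0 allows. The X chromosome held 233 BAP1-FLAG peaks, 1.45 per 1 Mb window over 161 windows, where the autosomes ranged from 5.01 to 12.8. Their median width was 986 bp and their median score 88.1. Of these peaks 34.8% were clustered and 7 (3.00%) reached the score of the highest autosomal decile, values below those of every autosome. The Y chromosome held 1 peak, with a score of 99.1. Sequences listed as random or unplaced in mm9 held 39 peaks with a median width of 1401 bp, a median score of 90.6 and a highest score of 815.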

How the results depend on the processing

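Of 60 values recomputed under alternatives, 31 stayed within the interval of the reported value (counts within 1.5 times) and 29 did not. With a score of at least 100 (9777 peaks) the rho of width and score was 0.59, narrow peaks were 5.11% of the strong ones, the median gap was 46323 bp, 34.5% of peaks were clustered, 69 clusters had 5 or more peaks and the densest windows held 28.5%. HCF1 then overlapped 90.7% of clustered and 89.5% of single peaks. The median width and the highest decile were redrawn on the peaks kept, so the narrow strong set differs from the one described above. HCF1 overlapped 86.0% of this other set. Stitching peaks over 1 kb gave a median gap of 29294 bp, 41.1% clustered, 152 clusters of 5 or more, 24.8% in the densest windows and 74.1% of single peaks on HCF1. Limits of 5 and 20 kb gave clustered shares of 34.1% and 63.9%, 92 and 590 clusters of 5 or more, and HCF1 on 77.7% and 75.6% of clustered peaks, and 10 kb between centres gave 44.6% clustered. Narrow taken as below the lower width quartile left 0.633% of strong peaks, 45.5% of them on HCF1. Windows of 500 kb held 29.6% in the densest set, and including X and other sequences gave 26.5%. The HCF1 share was higher for clustered than single peaks under 7 of 9 alternatives, and these 7 all kept the overlap rule. The share was lower wherever that rule was changed, with centres within 250 bp (47.2% and 52.9%) and with peaks trimmed to 200 bp (41.3% and 46.8%). The cause was not tested. Leaving out peaks over 5 kb moved no value beyond its interval. Depth is unknown, so a place without a peak may still be bound. No paired analysis was possible because there was only 1 library per protein.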
